A study of Mus musculus with 12 samples.

Results

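The 10 genes described here make up much of the naive pluripotency network of mouse embryonic stem cells: Pou5f1, Nanog, Klf2, Klf4, Klf5, Esrrb, Zfp42, Tfcp2l1, Tbx3 and Prdm14. They were chosen by name, 10 of the 21938 protein-coding genes of GENCODE on chromosomes 1 to 19, X and Y. The rule used no measured value, but the choice was made with earlier results of these data known. Shares set beside those of all genes or domains below are therefore not independent of these data. For each gene, the locus was the gene body with 50 kb on either side, and the promoter was the window of 1 kb on either side of the transcription start site (TSS), the outermost start of the gene record. All coordinates are on GRCm38. The loci held 115 of the 94875 accessible domains listed in embryoid bodies (EBs), 65 of 87916 in progenitors, 71 of 88806 in the no Dox control, 59 of 91181 in iHoxc6, 39 of 63504 in iHoxc9 and 39 of 56232 in iHoxc10.

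Accessible chromatin was profiled by ATAC-seq, which marks DNA that a transposase can reach, while mouse embryonic stem cells (mESCs) differentiated into spinal motor neurons. The 12 samples formed 6 groups with 2 samples each. EBs before patterning and progenitors after 2 days of retinoic acid (1 µM) and the Smoothened agonist SAG (0.5 µM) came from the line Ainv15(iCre). The other 4 groups had 4 days of both agents. They were iHoxc6, iHoxc9 and iHoxc10, from the lines Ainv15(iFlag.Hoxc6), Ainv15(iFlag.Hoxc9) and Ainv15(iFlag.Hoxc10), in which doxycycline (Dox, 3 µg/mL) switched on a Flag-tagged Hox gene for the last 48 h, and a no Dox control from Ainv15(iFlag.Hoxc6). All mESCs had been grown with leukemia inhibitory factor (LIF) and inhibitors of Mek and Gsk3, the medium that holds cells in the naive state. To form EBs they were moved to a medium listed without LIF or these inhibitors, so the EB list is not from cells in naive medium. Each inducible line carried a single transgene copy at the HPRT locus. Each group had 1 list of domains made from both samples, with coordinates only, so there was no replicate error, no test across samples was possible, and read depth was unknown. Differences below are descriptions of these 6 lists. In such bulk samples, fewer cells with an open site and less accessibility per cell cannot be told apart. The no Dox list had other columns than the rest and came from another set of sample records, so its cell line, its records and possible calling settings cannot be told apart from its treatment. Likewise, cell line cannot be told apart from stage between EBs or progenitors and the day 4 groups. Nor can it be told apart from the Hox gene among iHoxc6, iHoxc9 and iHoxc10.

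Naive pluripotency is the state of the early epiblast, which mESCs keep in culture. Pou5f1 (Oct4), a POU factor that binds the octamer together with Sox2, and the homeodomain factor Nanog form its core. Around them stand the nuclear receptor Esrrb, the Krüppel-like factors Klf2, Klf4 and Klf5, Tfcp2l1 and Tbx3, several of them targets of LIF and Stat3 or Wnt signalling, and Prdm14, which restrains Fgf signalling and DNA methylation. Zfp42 (Rex1) is a zinc-finger protein used as a reporter of this state. When mESCs leave it, much of the network is switched off.

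The promoters of the network differed in their content of CG dinucleotides, the target of DNA methylation, and the sequences are shown first because domain patterns are set against this content below. RefSeq held promoter sequences, 250 bases before to 50 after a start, for 7 of the 10 genes, on GRCm38.p6. The following sequences run 5′ to 3′ on the strand of the gene, with each CG in capitals. In Pou5f1 (chr17:35505782-35506081, plus strand) there were 11 CG dinucleotides, in Nanog (chr6:122707239-122707538, plus strand) 4, in Zfp42 (chr8:43306960-43307259, minus strand) 11, in Tfcp2l1 (chr1:118627695-118627994, plus strand) 21 and in Klf4 (chr4:55532426-55532725, minus strand) 40.
Pou5f1: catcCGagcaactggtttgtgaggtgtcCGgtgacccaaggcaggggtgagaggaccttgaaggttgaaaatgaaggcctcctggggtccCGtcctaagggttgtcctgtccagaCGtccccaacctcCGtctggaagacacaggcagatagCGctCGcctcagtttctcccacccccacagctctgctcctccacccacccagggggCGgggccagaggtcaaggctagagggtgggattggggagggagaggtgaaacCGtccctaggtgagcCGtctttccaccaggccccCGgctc
Nanog: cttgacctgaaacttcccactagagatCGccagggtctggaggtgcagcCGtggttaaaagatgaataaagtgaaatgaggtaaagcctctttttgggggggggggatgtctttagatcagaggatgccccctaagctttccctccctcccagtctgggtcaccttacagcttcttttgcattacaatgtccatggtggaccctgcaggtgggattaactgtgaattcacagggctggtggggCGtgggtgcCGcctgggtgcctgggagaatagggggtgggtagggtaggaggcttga
Zfp42: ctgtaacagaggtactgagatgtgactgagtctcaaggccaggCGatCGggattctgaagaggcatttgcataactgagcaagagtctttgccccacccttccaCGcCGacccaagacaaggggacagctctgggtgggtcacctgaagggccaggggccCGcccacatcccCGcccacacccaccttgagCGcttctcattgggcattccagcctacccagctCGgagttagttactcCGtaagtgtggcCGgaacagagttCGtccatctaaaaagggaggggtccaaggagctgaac
Tfcp2l1: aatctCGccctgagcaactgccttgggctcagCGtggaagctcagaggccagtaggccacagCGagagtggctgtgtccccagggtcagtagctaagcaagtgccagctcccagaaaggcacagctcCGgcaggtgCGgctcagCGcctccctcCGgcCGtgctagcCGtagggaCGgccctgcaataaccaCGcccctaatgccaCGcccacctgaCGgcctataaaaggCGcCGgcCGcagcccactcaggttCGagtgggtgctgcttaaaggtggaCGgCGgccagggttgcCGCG
Klf4: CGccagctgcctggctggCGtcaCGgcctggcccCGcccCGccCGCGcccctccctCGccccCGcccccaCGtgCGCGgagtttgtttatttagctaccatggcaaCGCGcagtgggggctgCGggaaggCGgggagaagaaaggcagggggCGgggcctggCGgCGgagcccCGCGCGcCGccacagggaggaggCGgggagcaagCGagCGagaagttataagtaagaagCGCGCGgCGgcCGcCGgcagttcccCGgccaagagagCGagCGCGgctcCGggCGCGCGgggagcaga
In the RefSeq window of Klf2 there were 32 CG dinucleotides, and in those of both listed starts of Esrrb 7. The first 3 printed promoters, of Pou5f1, Nanog and Zfp42, had no domain in any day 4 list, and the last 2, of Tfcp2l1 and Klf4, had one in all 6 lists. Of the Esrrb windows, each with 7 CG dinucleotides, that at chr12:86421394-86421693 held covered bp in all 6 lists and the other in none.

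At the promoters, 9 of the 10 genes had a domain in EBs, 6 in progenitors, 6 in the no Dox control, 6 in iHoxc6, 5 in iHoxc9 and 6 in iHoxc10. Over all protein-coding promoters the shares were 65.6% in EBs, 63.0% in progenitors, 62.1% in no Dox cells, 62.3% in iHoxc6, 59.3% in iHoxc9 and 59.0% in iHoxc10. Of the 9 genes with an EB domain at the promoter, 3 had none in progenitors (Pou5f1, Nanog and Prdm14), where 6.89% of all EB promoters had none. Of these 9, 2 had a domain in EBs and in no other list (Pou5f1 and Nanog), against 4.65% of all EB promoters. Domains in all 6 lists were found at 5 of the 9, Klf2, Klf4, Klf5, Tfcp2l1 and Tbx3, against 85.5% of all EB promoters.

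The core factors Pou5f1 and Nanog had a promoter domain in EBs alone. At Pou5f1, 744 bp of the promoter window of 2001 bp were covered in EBs, and 0 bp in all 5 later lists. The covered part lay in a domain of 687 bp centred at -0.97 kb (chr17:35504705-35505391), part of it outside the window, and in one of 370 bp over the start and the first exon (chr17:35505730-35506099). At Nanog, 623 bp were covered in EBs by a single domain (chr6:122706910-122707532), and 0 bp in each of the other 5 lists. Zfp42 held on longer, with 379 bp in EBs, 181 bp in progenitors and 0 bp in all 4 day 4 lists. Its EB domain of 336 bp lay over the start and the first exon (chr8:43306915-43307250), and a further EB-only domain of 209 bp lay at +1.06 kb in an intron, mostly beyond the window.

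The promoters of the Krüppel-like factors, Tfcp2l1 and Tbx3 were covered throughout. Klf4 had 1070 bp in EBs, 1570 bp in progenitors, 1661 bp without Dox, 1445 bp in iHoxc6, 1108 bp in iHoxc9 and 930 bp in iHoxc10. Klf5 had 1068, 1410, 1223, 1323, 1124 and 1073 bp in the same order, and Klf2 had 936, 917, 1504, 1237, 974 and 553 bp. Thus EBs had the lowest coverage of the 6 lists at Klf5, and were below both progenitors and the no Dox control at Klf4. Tbx3, a T-box factor, had 963, 789, 852, 992, 592 and 826 bp. Tfcp2l1, a grainyhead-like factor downstream of LIF and Wnt, had 702, 865, 341, 536, 305 and 517 bp, so that its day 4 lists were all below EBs and progenitors.

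Esrrb and Prdm14 followed neither pattern. The outermost Esrrb start had 0 bp in all 6 lists, EBs included. A start inside the gene record lay in a region centred at +60.55 kb (chr12:86421465-86421867, exon) that was covered in all 6 lists, with 372 bp in EBs, 365 bp in progenitors, 244 bp without Dox, 314 bp in iHoxc6, 266 bp in iHoxc9 and 223 bp in iHoxc10. Prdm14 (chr1:13113457-13127163, minus strand) had 89 bp in EBs, 0 bp in progenitors, 50 bp without Dox, 49 bp in iHoxc6, 0 bp in iHoxc9 and 33 bp in iHoxc10. Each of these Prdm14 values came from narrow domains at different places of the window, none of which overlapped a domain of another list. With domains of at least 150 bp only, Prdm14 had no promoter domain in any list, and the counts over the 10 genes became 8, 6, 5, 5, 5 and 5.

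**Figure D1:**
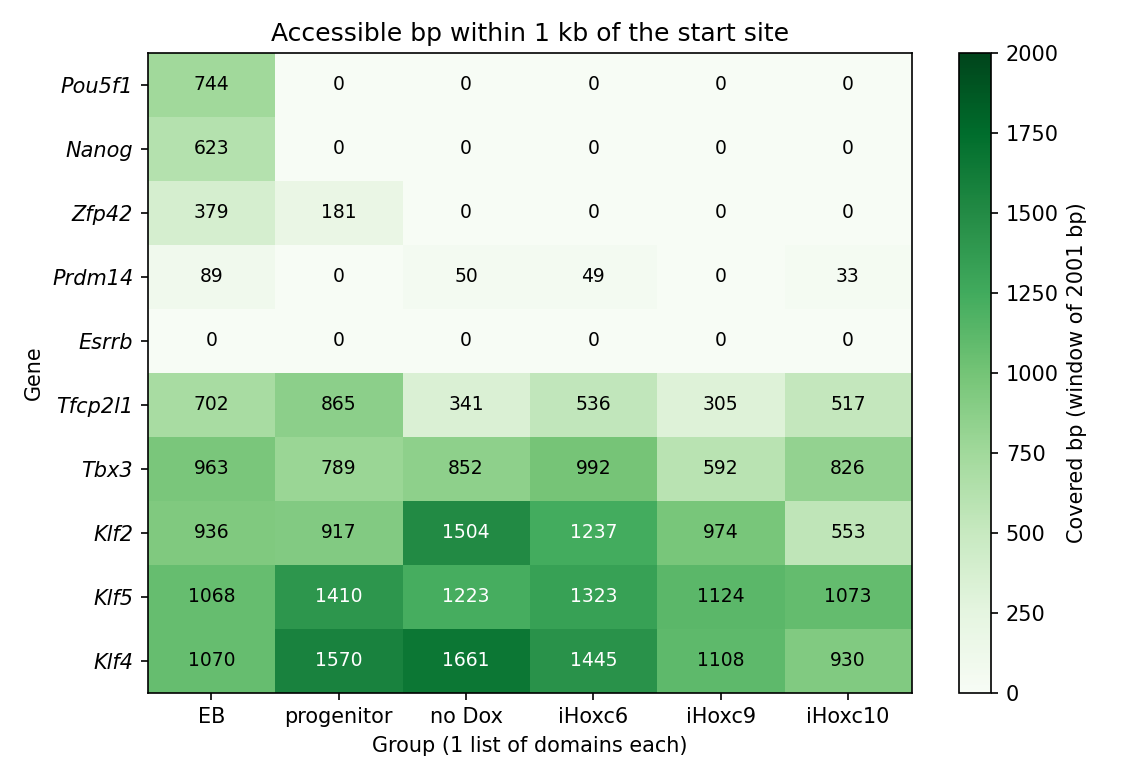
Covered bp within 1 kb of the start site (window of 2001 bp) for each of the 10 genes (rows) in each of the 6 lists (columns, 1 list per group, no error available), with the value printed in each cell and darker green for more bp. Pou5f1 and Nanog have covered bp in the EB column alone, Zfp42 in EBs and progenitors, and Klf2, Klf4, Klf5, Tbx3 and Tfcp2l1 in every column.

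Summed over the 10 genes, 6574 bp of promoter were covered in EBs, 5732 bp in progenitors, 5631 bp without Dox, 5582 bp in iHoxc6, 4103 bp in iHoxc9 and 3932 bp in iHoxc10. Relative to EBs these were 0.872, 0.857, 0.849, 0.624 and 0.598 times, while promoters of all protein-coding genes were covered 1.15, 1.28, 1.08, 0.885 and 0.990 times as much as in EBs. The iHoxc9 and iHoxc10 lists were also the shortest, with 17.8 and 20.1 Mb covered in all, against 23.1 Mb in EBs, 25.7 Mb in progenitors, 29.7 Mb without Dox and 24.8 Mb in iHoxc6.

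The promoters with a domain in every list were, but for Tfcp2l1, those with the most CpG. The CpG observed to expected ratio of the promoter window was 0.259 at Pou5f1, 0.302 at Esrrb, 0.314 at Nanog, 0.470 at Tfcp2l1, 0.508 at Zfp42 and 0.581 at Prdm14. It was 0.726 at Klf2, 0.816 at Tbx3, 0.864 at Klf4 and 0.866 at Klf5. The 4 genes at 0.6 or above all had a domain in every list, and of the 6 below 0.6 only Tfcp2l1 did. Among these 6, Esrrb had no EB domain at this start that could be kept. Its start at +60.55 kb was covered in all 6 lists, and the ratio was computed at the outermost start only. Among all protein-coding promoters with an EB domain, 97.0% of those at 0.6 or above had a domain in every list, 81.5% of those from 0.3 to 0.6 and 29.8% of those below 0.3. EB-only promoter domains made up 0.230%, 4.82% and 33.3% of the same classes. Pou5f1 fell in the lowest class, where 14.3% of promoters had an EB domain at all, and Esrrb and Nanog just above its upper limit.

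**Figure D2:**
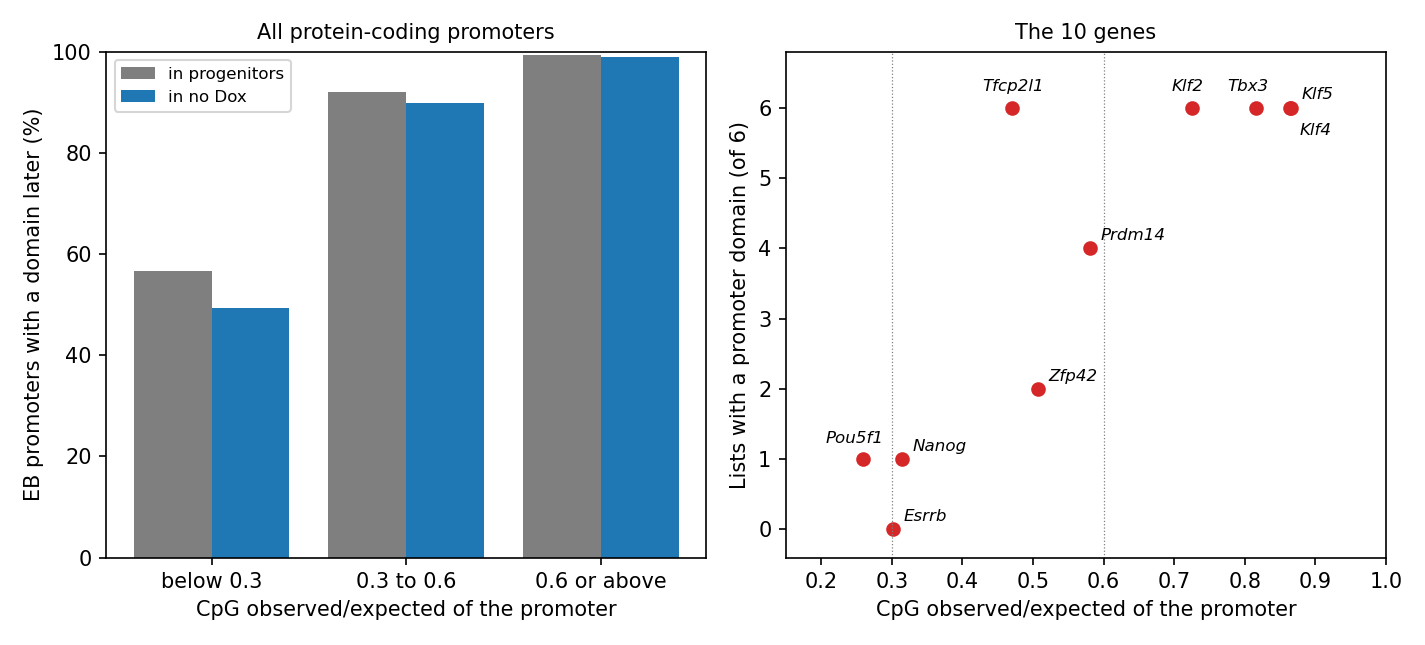
Left, the share (%) of protein-coding promoters with an EB domain that had a domain in progenitors (grey) or in the no Dox control (blue), by class of CpG observed to expected ratio; right, the number of the 6 lists with a promoter domain against this ratio for the 10 genes (red points), dotted lines marking the class limits 0.3 and 0.6. Shares rise from 56.7% and 49.2% below 0.3 to 99.4% and 99.0% at 0.6 or above, and the 4 genes right of 0.6 are all at 6 lists.

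Over whole loci, the network had fewer covered bp in every later list than in EBs, the list that all 5 comparisons share. Covered bp in the 10 loci came to 24411 in EBs, 17586 in progenitors, 17544 in no Dox cells, 16425 in iHoxc6, 10798 in iHoxc9 and 10857 in iHoxc10. Covered bp was lower than in EBs at 8 of the 10 loci in progenitors, where 43.2% of the 20712 loci with EB domains were lower, and at 7 of 10 without Dox, against 33.2%. It was lower at 9 of 10 in iHoxc6 (53.6% of all loci), 9 of 10 in iHoxc9 (81.6%) and 10 of 10 in iHoxc10 (71.1%). The median ratio to EBs over the 10 loci was 0.662 in progenitors, 0.590 in no Dox cells, 0.629 in iHoxc6, 0.362 in iHoxc9 and 0.491 in iHoxc10. Over all loci the median was 1.05, 1.18, 0.970, 0.713 and 0.822 in the same order.

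Pou5f1 and Nanog followed this course. The Pou5f1 locus had 3585 bp in EBs, 2031 bp in progenitors, 1578 bp without Dox, 2016 bp in iHoxc6, 835 bp in iHoxc9 and 992 bp in iHoxc10. Much of what stayed there belonged to neighbours, since a single region over the promoters of Tcf19 and Cchcr1 held 622, 1122, 883, 1229, 534 and 680 bp of these. The Nanog locus had 5324, 3243, 2774, 2955, 1722 and 1725 bp in the same order. Of its 6 regions found in every list, 4 overlapped Slc2a3, the gene of a glucose transporter, and the other 2 lay at -46.70 and -37.71 kb.

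Klf4 and Tfcp2l1 were above EBs in some later lists, as were Klf2 and Esrrb without Dox, given below. Klf4 had 2473 bp in EBs, 2673 bp in progenitors, 3693 bp without Dox, 3199 bp in iHoxc6, 2952 bp in iHoxc9 and 1787 bp in iHoxc10, so that only iHoxc10 was below EBs. Tfcp2l1 went from 805 bp in EBs to 1646 bp in progenitors, with 5 regions found in progenitors alone, and then to 438, 695, 305 and 613 bp in the day 4 lists. Prdm14 was below EBs in every later list, but unevenly. It had 1074 bp in 13 EB domains and 43 bp in a single progenitor domain, the lowest ratio to EBs of the 10 loci in any list (0.0400). At day 4 it had 903, 431, 163 and 615 bp. Of its 26 regions, 12 were found in 1 day 4 list alone, and 0 in every list.

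The remaining loci are given here. Klf5 had 2936 bp in EBs, then 2059, 1869, 1620, 1124 and 1269 bp in the later lists, and in iHoxc9 its promoter domain was the only domain of the locus. Tbx3 had 2610 bp in EBs, then 2251, 1177, 1817, 641 and 1434 bp. Both loci were thus below EBs in all 5 later lists. Zfp42 had 1340 bp in EBs, then 901, 506, 948, 938 and 511 bp, with its region at +23.00 kb making up most of the iHoxc9 and all of the iHoxc10 value. Esrrb, the longest of the 10 genes, had 2377 bp in EBs, then 1548, 2430, 1316, 822 and 1316 bp. Klf2 had 1887 bp in EBs, then 1191, 2176, 1428, 1296 and 595 bp. Without Dox, Klf2 and Esrrb were thus above EBs, at 1.15 and 1.02 times, while the whole list was at 1.29 times.

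**Figure D3:**
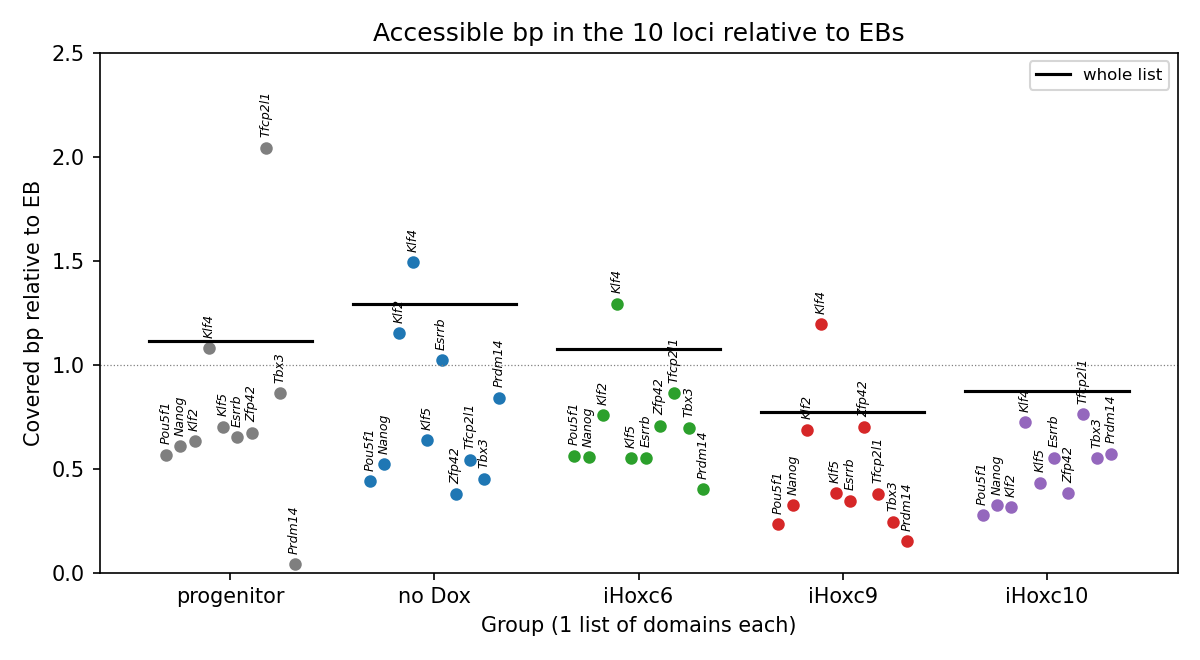
Covered bp of each of the 10 loci relative to EBs (vertical axis, ratio; dotted line at 1) in the 5 other lists (horizontal axis; 1 list per group, no error available); each point is a gene, and black lines give the ratio of all covered bp of the list. Most points lie below both lines, with Klf4 above 1 in 4 lists and Tfcp2l1 at 2.05 in progenitors.

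How many EB domains had no counterpart later was counted next, a counterpart being any overlap of at least 1 bp. Of the 115 EB domains in the 10 loci, 80 were absent from progenitors, 69.6% (95% Wilson interval 60.6 to 77.2, for the counting of domains only), where 57.4% of all EB domains were. From the no Dox list 66.1% were absent (57.0 to 74.1), against 59.5%. From iHoxc6 70.4% were absent (61.5 to 78.0), against 59.9%, from iHoxc9 78.3% (69.9 to 84.8), against 66.4%, and from iHoxc10 76.5% (68.0 to 83.3), against 67.4%. Absent from all 5 other lists were 68 domains, 59.1% (49.99 to 67.68), against 48.5%. The interval held the genome-wide share for the no Dox list and lay above it for the others. With lists of equal length, given below, it also held that share for progenitors, iHoxc10 and all 5 other lists together. Domains of the same locus are not independent of each other.

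The shares differed with width and position. Under 50 bp, 77.3% of the EB domains in the loci were found in no other list, and 75.8% of all EB domains. At 150 bp or wider the shares were 46.2% (33.3 to 59.5) and 26.3%. Among EB domains at protein-coding promoters, 7 of 19 in the loci were in no other list, 36.8% (19.2 to 59.0), against 10.7%. Among distal domains of 150 bp or wider the share was 48.7% (33.9 to 63.8), against 36.6%, and the interval held the genome-wide value.

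**Figure D4:**
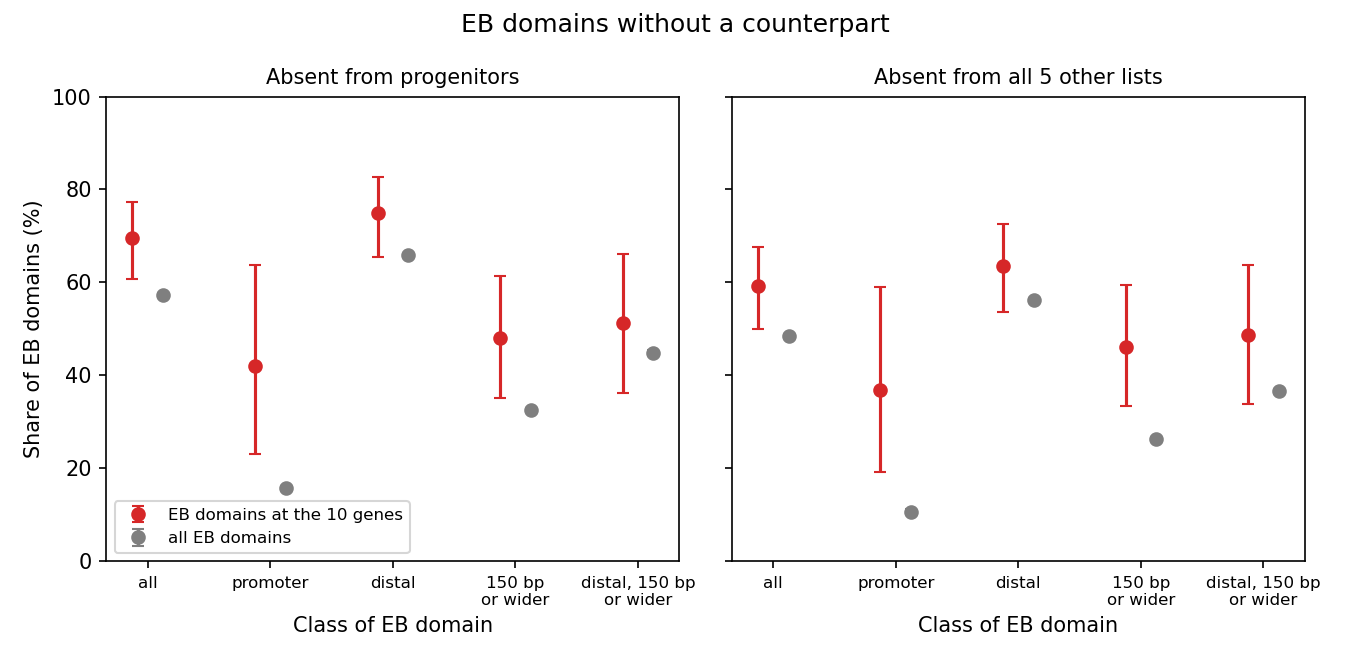
Share (%) of EB domains with no overlapping domain in progenitors (left) or in any of the 5 other lists (right), for EB domains in the 10 loci (red; bars are 95% Wilson intervals for counting only) and all EB domains (grey), by class of domain. Red points lie above grey ones in all 5 classes, most at promoters, and the bars reach the grey value in both distal classes.

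Overlapping domains of the 6 lists merged into 192 regions in the 10 loci. Of these, 68 held EB domains only, 35.4% (29.0 to 42.4), against 21.1% of all merged regions, and 21 held domains of every list, 10.9% against 11.2%. EB-only regions occurred at all 10 genes, from 13 of 31 at Nanog and 10 of 26 at Prdm14 to 3 of 13 at both Klf4 and Tfcp2l1. Regions of EBs and progenitors only numbered 4, 2.08% (0.813 to 5.23), near the 1.61% of all merged regions. They were at Nanog, Klf2, Zfp42 and Tbx3.

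The widest EB-only regions were found at Klf5, Pou5f1, Tbx3 and Nanog. At Klf5 a domain of 713 bp lay at +41.33 kb (chr14:99339660-99340372), outside the gene. At Tbx3 one of 645 bp lay at +9.51 kb over an exon (chr5:119679856-119680500), and one of 393 bp lay at +39.44 kb. Besides its promoter domains Pou5f1 had one of 433 bp at -2.07 kb (chr17:35503732-35504164), and Nanog had one of 589 bp at +8.61 kb (chr6:122715802-122716390). Within Esrrb, domains of 360 bp at +137.9 kb (intron) and 310 bp at +109.0 kb (exon) were listed in EBs alone. A region at -4.71 kb of Nanog (chr6:122702462-122703089) was kept for longer, with 613 bp in EBs and 381 bp in progenitors and 0 bp in the 4 day 4 lists. The region at -2.73 kb of Klf2 had 357 bp in EBs and 110 bp in progenitors and likewise none at day 4.

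**Figure D5:**
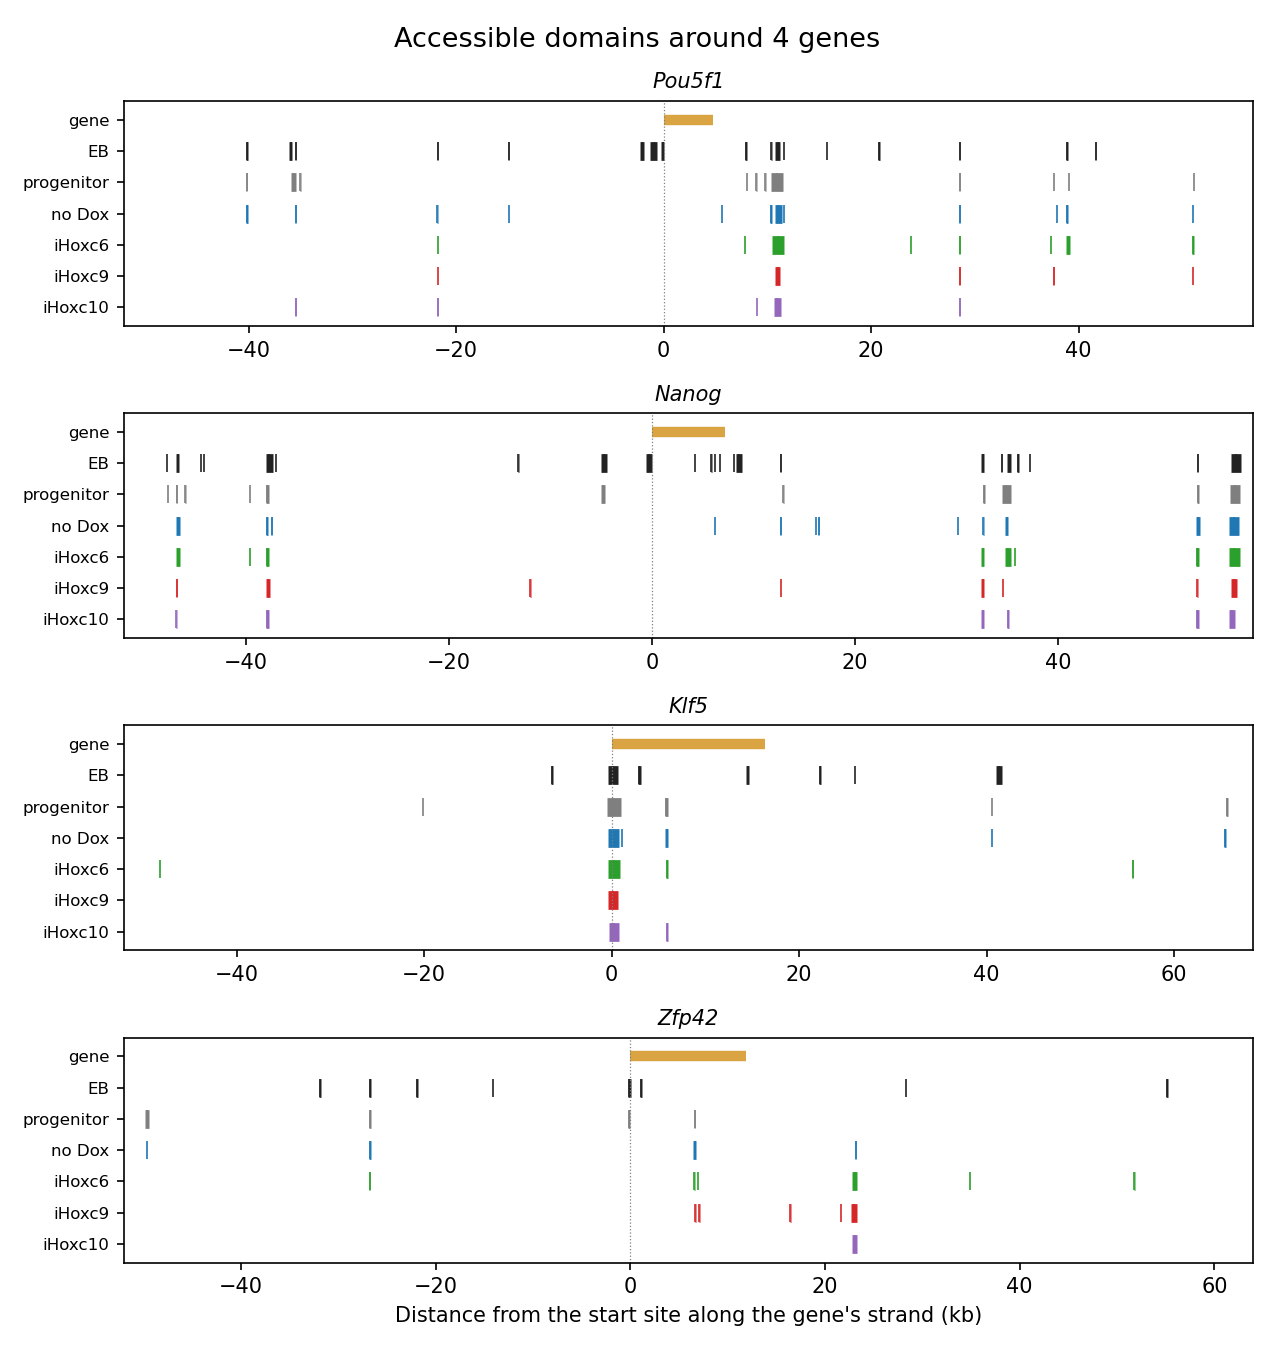
Domains of the 6 lists (rows, 1 colour per list; very narrow domains are drawn with a minimum line width) around Pou5f1, Nanog, Klf5 and Zfp42, against distance from the start site along the strand of the gene (kb); gold bars are gene bodies. Around the starts of Pou5f1 and Nanog domains occur in the EB row alone, the Klf5 start is marked in all rows, and at +23.00 kb of Zfp42 a region appears in the 4 day 4 rows.

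Some regions appeared only after EBs. Regions found in progenitors alone numbered 17 (8.85% of 192, against 12.0% of all merged regions), and regions in 1 day 4 list alone 47 (24.5%, against 30.6%). Regions in 2 or more day 4 lists but not in EBs or progenitors numbered 4, 2.08% (0.813 to 5.23), against 6.29%. Of these, the one at +23.00 kb of Zfp42, beyond its 3′ end (chr8:43283666-43284290), had 70 bp without Dox, 517 bp in iHoxc6, 625 bp in iHoxc9 and 511 bp in iHoxc10. The one at -28.69 kb of Tbx3, within Tbx3os1, had 217 bp without Dox, 462 bp in iHoxc6, 0 bp in iHoxc9 and 455 bp in iHoxc10. In an Esrrb intron at +123.1 kb the values were 561, 82, 0 and 117 bp, and the last, at -15.90 kb of Prdm14 within Ncoa2, had 33, 96, 0 and 0 bp. A region at +148.7 kb of Esrrb was narrow in EBs and wider later, with 36 bp in EBs, 258 bp in progenitors and 716, 414, 469 and 642 bp at day 4. Regions of EBs that were absent from progenitors and listed again at day 4 numbered 9, 4.69% against 3.13%.

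A pair of stretches of EB-accessible promoter held close matches to the octamer, ATGCAAAT, the motif of Pou5f1. In the Nanog promoter (chr6:122707389-122707448, inside the EB-only domain), the first 7 letters of the octamer on the opposite strand, TTTGCAT, were followed after 1 base by ACAAT, the core of the Sox motif. In the Zfp42 promoter (chr8:43307160-43307219, minus strand, inside its EB domain) the same 7 letters stood without ACAAT but followed an A, so that the full octamer was present. Capitals mark the 7 letters and ACAAT.
Nanog: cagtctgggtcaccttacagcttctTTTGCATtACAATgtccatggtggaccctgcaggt
Zfp42: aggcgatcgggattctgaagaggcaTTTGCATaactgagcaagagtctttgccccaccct
The 7 letters occurred on either strand in 4.63% of the 32851 RefSeq promoters of 300 bases, the full octamer in 1.74% and ACAAT in 31.0%. The match in Nanog began at -75 and that in Zfp42 at -185 from the RefSeq start.

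Among EB-only domains in the loci, the same letters were found in a Klf2 domain of 131 bp at -7.75 kb (chr8:72311214-72311344), again with ACAAT, and in a pair of Esrrb domains, all chosen after their letters were seen (chr12:86470988-86471174 and, for the central 300 bases, chr12:86498891-86499190). The wide Pou5f1 domain at -2.07 kb (central 300 bases, chr17:35503798-35504097) held ACAAT alone. The full octamer stood in the Klf2 domain and in the first Esrrb domain. The sequences are shown on the plus strand with matches on either strand in capitals, to set them beside the promoter stretches.
Klf2 at -7.75 kb: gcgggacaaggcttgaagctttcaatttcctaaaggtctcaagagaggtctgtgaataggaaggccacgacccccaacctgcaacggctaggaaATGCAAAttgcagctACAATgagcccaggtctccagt
Esrrb at +110.0 kb: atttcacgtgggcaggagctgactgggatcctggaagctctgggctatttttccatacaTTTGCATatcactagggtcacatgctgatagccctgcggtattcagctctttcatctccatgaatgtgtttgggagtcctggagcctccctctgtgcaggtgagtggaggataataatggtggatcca
Esrrb at +137.9 kb: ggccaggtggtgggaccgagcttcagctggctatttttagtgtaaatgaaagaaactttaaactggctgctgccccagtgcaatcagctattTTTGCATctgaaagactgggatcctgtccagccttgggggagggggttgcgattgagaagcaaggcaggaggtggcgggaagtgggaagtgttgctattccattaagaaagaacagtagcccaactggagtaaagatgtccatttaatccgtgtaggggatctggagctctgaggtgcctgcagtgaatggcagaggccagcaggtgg
Pou5f1 at -2.07 kb: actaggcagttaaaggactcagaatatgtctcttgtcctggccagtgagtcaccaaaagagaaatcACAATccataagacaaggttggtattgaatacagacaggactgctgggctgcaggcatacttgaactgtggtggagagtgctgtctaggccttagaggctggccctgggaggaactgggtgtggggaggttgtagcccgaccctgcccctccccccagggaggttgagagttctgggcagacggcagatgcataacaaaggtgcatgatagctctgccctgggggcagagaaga
Over the loci as a whole such matches were about as frequent as elsewhere, and every interval held the share of all EB domains. Letters were searched in a window of 200 bp centred on each domain, which reached past the ends of the 77 of 115 EB domains narrower than that (67.0%, against 64.1% of all EB domains). Of these windows, 5.22% held ATGCAAA (2.41 to 10.9), against 4.83% of those on all EB domains, and 2.61% held the full octamer (0.891 to 7.39), against 2.36%. The Esrrb motif AAGGTCA was found in 1.74% (0.478 to 6.12), against 3.15%, CACCC, bound by Krüppel-like factors, in 40.9% (32.32 to 50.01), against 44.0%, and a pair of CCAG 6 bases apart, bound by Tfcp2l1, in 2.61% (0.891 to 7.39), against 3.05%. ACAAT was found in 18.3% (12.3 to 26.3), against 23.3%, and TAAT, the core of homeodomain motifs, in 38.3% (29.9 to 47.4), against 46.9%.

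Other genes of the pluripotent state were followed through a list of 17, of which 12 had a promoter domain in EBs, 7 in progenitors, 5 in no Dox cells, 5 in iHoxc6, 4 in iHoxc9 and 5 in iHoxc10. Over all protein-coding promoters 65.6% had one in EBs, 63.0% in progenitors and 59.0% to 62.3% in the day 4 lists. Of the 12 with an EB domain, 5 had one in EBs alone, against 4.65% of all EB promoters. A domain in every list was found at 4 of the 12, against 85.5%. The 5 with a domain in EBs alone were Tdgf1, a Nodal co-receptor (186 bp), Gdf3, a TGF-β ligand (307 bp), Fbxo15, a known Pou5f1 target (192 bp), L1td1 (512 bp) and Dppa4 (34 bp). Fgf4, the ligand that pushes mESCs towards differentiation, had 48 bp in EBs and 7 bp in progenitors, and Zfp296 had 309 and 244 bp, with none later. Utf1 had 1090 bp in EBs and 198, 258, 72, 0 and 69 bp in the later lists. Sox2, Sall4, Lin28a and Nr0b1 had a domain in all 6 lists, and Dppa2, Dppa3, Dppa5a, Nr5a2 and Tcl1 in none. Counting any annotated transcript start, Tdgf1 also had a domain in progenitors, Zfp296 also in no Dox cells, Dppa2 in EBs alone, and Fbxo15 and Nr5a2 in every list.

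Genes of the formative and primed states, which follow the naive state in the embryo, were read next. Of 7, all 7 had a promoter domain in EBs, 6 in progenitors, 6 in no Dox cells, 6 in iHoxc6, 5 in iHoxc9 and 5 in iHoxc10. In EBs 65.6% of all protein-coding promoters had one. A domain in every list was found at 4 of the 7, against 85.5% of all EB promoters. Otx2, which drives the exit from the naive state, had 59 bp at its outermost start in EBs alone, and with any annotated start counted also a domain in no Dox cells and iHoxc6. Lef1 lacked a domain in iHoxc9, and Foxd3 lacked one in iHoxc10. Of 12 genes that carry the LIF, Wnt and Fgf signals, such as Stat3, Socs3 and Tcf7l1, 10 had a promoter domain in EBs. Of these 10, 9 had one in every list, near the 85.5% of all EB promoters. The genes without a domain in every list were Fgfr1, an Fgf receptor, with 150 bp in EBs, 48 bp without Dox and none in the other lists at its outermost start, and Lifr and Ctnnb1, with none there in any list. All 3 had a domain in every list when any annotated transcript start was counted.

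Marker promoters of other cell types were read in the same way. Of 10 neural progenitor and motor neuron genes, 10 had a promoter domain in EBs, where 65.6% of all protein-coding promoters had one. Of these 10, 9 had a domain in every list, near the 85.5% of all EB promoters. The exception was Pax6, with none at its outermost start in no Dox cells and iHoxc10. Covered bp of these 10 promoters summed to 7998 in EBs, 10146 in progenitors and 12284, 9470, 7531 and 8629 at day 4. Single genes differed. Olig2, the factor of motor neuron progenitors, went from 232 bp in EBs to 978 bp in progenitors and 1366, 1082, 541 and 901 bp at day 4. Lhx3 went from 459 bp in EBs to 416 bp in progenitors and 231, 221, 364 and 88 bp at day 4. Of 8 endoderm and mesoderm genes, 7 had a domain in EBs, 7 in progenitors, 6 in no Dox cells, 6 in iHoxc6, 5 in iHoxc9 and 5 in iHoxc10. In EBs 65.6% of all protein-coding promoters had one. Of the 7 with an EB domain, 5 had one in every list, against 85.5% of all EB promoters. Brachyury (T), a mesoderm factor, had 1015 bp in EBs, 97 bp in progenitors and 0 bp in the 4 day 4 lists, and Sox17, an endoderm factor, had 649, 67, 182, 62, 0 and 0 bp at its outermost start. Foxa2 and Mesp1 were also below EBs in every later list. Eomes had 820 bp in EBs, 1024 bp in progenitors and 560, 265, 182 and 59 bp at day 4. Gata6 was above EBs in every later list, with 386, 817, 790, 653, 648 and 616 bp. Tbx6 changed little, with 366, 404, 412, 347, 356 and 394 bp. Gata4 had none at its outermost start. Pax6, Sox17 and Gata4 had a domain in every list when any annotated start was counted. Summed over the list, covered bp of these 8 promoters went from 5170 in EBs to 3500 in progenitors and 2968, 2062, 1690 and 1517 at day 4. The part of such other cells of the EBs in the domains above was not tested.

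In all, 669 genes shared the pattern of Pou5f1 and Nanog, a promoter domain in EBs and in no other list. The 10 of them with the most covered promoter bp in EBs, an order by coverage and not by likeness, were Vrtn (1600 bp), Zscan10 (1023 bp), a zinc-finger factor of pluripotent cells, Foxr2 (855 bp), Dnajc25 (757 bp), Pou5f1 itself (744 bp), Rbbp8nl (740 bp), Bmp8b (720 bp), a BMP ligand, Gna15 (692 bp), a G protein subunit, Gramd1a (688 bp) and Qprt (653 bp), an enzyme of NAD synthesis. Nanog came 13th with 623 bp.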

How the data were processed

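Reads of all 12 ATAC-seq samples were mapped by the authors to mm10 (GRCm38) with Bowtie2 2.2.2, and accessible domains were defined with DomainFinder. Picard 2.8.2 is named in the submitters' processing notes without its role. The deposited coordinates, 1 list per group from both replicates, carry no height, count or p-value. Whether starts count from 0 or 1 is not given in the sources used here. They were read as in BED and are printed counting from 1, so positions are uncertain by 1 bp. The no Dox list had 3 more columns, all constant, and a day in its name that differs from the labelled one, which was used.

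Genes came from GENCODE M21, promoter sequences from RefSeq (GRCm38.p6). Domains overlapping a window by at least 1 bp were counted, and covered bp were those inside the promoter window or, for loci, of whole domains. CpG observed to expected ratios were computed over promoter windows. Motif letters were searched on both strands in windows centred on each EB domain, also where the domain is narrower. Python 3.11.15, NumPy 2.4.6, SciPy 1.17.1, pysam 0.24.0 and Matplotlib 3.10.9 were used. The overlap code was tested on simulated data, and 0 of 8003 checks differed. The members and gene lists were chosen with earlier results of these data known. The text names the 10 members, listed genes whose pattern differed from a domain in every list, and the 10 genes with the most covered EB-only promoter bp. A few other listed genes are named as examples. A gene of the formative and primed list is not reported here. Shares have 95% Wilson intervals. Alternatives changed domain width, list length, windows, start sites, overlap and motif window. The first 7 octamer letters were added after seeing the data.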

Additional observations from a re-analysis of the deposited data

How the results depend on the processing

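No paired analysis was possible because each list was made from both replicates, and for the same reason no replicate could be left out. Of 132 alternative values, 119 stayed within the limits set for a move (for shares, the 95% Wilson interval of the reported share, and for counts and ratios a change of 1.5 times), and 13 moved. Every ratio to EBs and every promoter count of a later list stayed below EBs. The shares of EB domains and of motifs have no direction relative to EBs, so they could not change it. With lists of equal length, the 56232 widest domains of each, the ratio of domains in the loci to EBs was 0.556 in iHoxc9 and 0.619 in iHoxc10. The share of the 63 EB domains absent was 57.1% (44.9 to 68.6) from progenitors and 68.3% (56.0 to 78.4) from iHoxc9. It was 60.3% (48.0 to 71.5) from iHoxc10 and 46.0% (34.3 to 58.2) from all other lists. Of all EB domains, 45.8%, 52.5%, 51.9% and 36.6% were absent in the same order. Of these intervals, only that for iHoxc9 lay above the genome-wide share. From iHoxc6 63.5% were absent (51.2 to 74.3), against 48.6%, an interval that also lay above the genome-wide share. From the no Dox list 58.7% were absent (46.4 to 70.0), against 49.2%, an interval that held it. With an overlap of 50% of the EB domain required, 78.3% were absent from progenitors, 78.3% from iHoxc6 and 84.3% from iHoxc10, against 66.9%, 68.5% and 74.2% of all EB domains. In windows of 500 bp centred on the domains, which reached past the ends of 87.8% of those in the loci, 6.96% held AAGGTCA, 79.1% CACCC, 42.6% ACAAT and 78.3% TAAT, where 7.96%, 72.9%, 48.3% and 77.8% of the windows on all EB domains did. Read depth was not given, so a domain missing from a list may lie below what its depth could show.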

Other observations

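Several neighbours stayed covered where the pluripotency genes did not. The region over the promoters of Tcf19 and Cchcr1, at +10.94 kb of Pou5f1, was found in all 6 lists, as was that at +57.39 kb of Nanog within Slc2a3, with 944 bp in EBs, 920 bp in progenitors, 1038 bp without Dox, 1045 bp in iHoxc6, 582 bp in iHoxc9 and 758 bp in iHoxc10. A region at -35.73 kb of Pou5f1, over the promoter of H2-Q10, a class I histocompatibility gene, had 420 bp in EBs, 427 bp in progenitors, 76 bp without Dox, 61 bp in iHoxc10 and 0 bp in iHoxc6 and iHoxc9. Progenitors had a further 34 bp at -35.01 kb (chr17:35470992-35471025).

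In an intron of Tfcp2l1 at +15.26 kb (chr1:118642964-118643450), a region absent from EBs had 487 bp in progenitors, 46 bp without Dox and 159 bp in iHoxc6, and none in iHoxc9 and iHoxc10. In Klf5 a region at +5.84 kb over an exon was also absent from EBs, with 323 bp in progenitors, 316 bp without Dox, 215 bp in iHoxc6, 0 bp in iHoxc9 and 196 bp in iHoxc10.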
